A study of Homo sapiens with 6 samples.

Results

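The genes described are the receptors of the ERBB (epidermal growth factor receptor) family, the EGF-like ligands that bind them and the feedback inhibitor ERRFI1, in RNA sequencing of HCT116 cells with and without LSD1. Its 10 members were taken by symbol from the 60240 genes of the count table: the receptors EGFR, ERBB2 and ERBB3, the ligands EREG, AREG, TGFA, HBEGF, BTC and EPGN, and ERRFI1. HCT116 is an established human colorectal carcinoma cell line, grown here for both genotypes in McCoy's 5A medium with fetal bovine serum and no added ligand that the labels name. Poly(A) RNA was sequenced from 3 wild-type (WT) libraries and 3 libraries of LSD1 knockout (LSD1 KO) cells. LSD1, encoded by KDM1A, is a histone demethylase that removes methyl groups from lysine 4 of histone H3. The knockout was made by transient transfection with a CRISPR/Cas9 plasmid aimed at the exon at the start of LSD1, drug selection and growth of single clones, and how many clones the LSD1 KO libraries represent is not given in the sources used here. The study's methods describe its experiments in general as done with biological replicates, but the labels do not say that these libraries came from separate cultures, and the p values measure the spread between these libraries, which may be technical.

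ERBB receptors are tyrosine kinases of the cell surface. Ligand binding brings receptors together in pairs, the kinases phosphorylate the receptor tails, and adaptors carry the signal to the RAS-ERK and PI3K-AKT routes of growth and survival. EREG, AREG, TGFA, HBEGF, BTC and EPGN are made as membrane-bound precursors and are released by metalloproteases, and in colon epithelium EREG and AREG are known as ligands of EGFR whose levels are followed in colorectal cancer. ERBB2 has no known ligand of its own and acts as a partner of the other receptors, while the kinase of ERBB3 is nearly inactive and its ligands are the neuregulins. ERRFI1 (also MIG6) binds the EGFR kinase, blocks it and is itself induced by growth factor signalling, which makes it a feedback inhibitor.

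The promoters of ERRFI1, AREG and EGFR are shown because these genes carried the differences described below, and that of EREG because it lies beside AREG on chromosome 4 and was not called. Each sequence holds 250 bases before and 50 bases after the start of the gene in RefSeq (GRCh38.p14), written 5′ to 3′ on the strand of the gene. Capitals mark matches on either strand to the TATA box TATAAA, the cyclic AMP response element TGACGTCA, the AP-1 motif TGANTCA or the GC box GGGCGG, and these motifs do not overlap each other in the 4 promoters. ERRFI1 is read from the minus strand of chr1:8026260-8026559, and AREG, EREG and EGFR from the plus strand of chr4:74444886-74445185, chr4:74364895-74365194 and chr7:55018767-55019066.
ERRFI1: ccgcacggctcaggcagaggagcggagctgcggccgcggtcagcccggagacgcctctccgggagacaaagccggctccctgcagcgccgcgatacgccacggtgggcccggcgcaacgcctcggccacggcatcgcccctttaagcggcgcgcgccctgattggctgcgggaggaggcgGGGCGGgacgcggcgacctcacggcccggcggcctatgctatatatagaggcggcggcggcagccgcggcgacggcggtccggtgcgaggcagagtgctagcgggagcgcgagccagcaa
AREG: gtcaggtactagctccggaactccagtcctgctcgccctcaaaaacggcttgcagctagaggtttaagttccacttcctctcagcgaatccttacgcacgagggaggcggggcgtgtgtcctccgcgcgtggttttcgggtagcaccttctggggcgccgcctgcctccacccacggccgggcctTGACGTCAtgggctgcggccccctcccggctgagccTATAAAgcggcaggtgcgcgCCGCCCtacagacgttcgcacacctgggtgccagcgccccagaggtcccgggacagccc
EREG: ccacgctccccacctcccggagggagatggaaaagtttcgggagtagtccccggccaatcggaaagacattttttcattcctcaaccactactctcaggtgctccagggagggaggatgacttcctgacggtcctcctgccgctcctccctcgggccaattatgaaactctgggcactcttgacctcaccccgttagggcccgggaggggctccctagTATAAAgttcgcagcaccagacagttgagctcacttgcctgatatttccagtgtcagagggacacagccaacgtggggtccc
EGFR: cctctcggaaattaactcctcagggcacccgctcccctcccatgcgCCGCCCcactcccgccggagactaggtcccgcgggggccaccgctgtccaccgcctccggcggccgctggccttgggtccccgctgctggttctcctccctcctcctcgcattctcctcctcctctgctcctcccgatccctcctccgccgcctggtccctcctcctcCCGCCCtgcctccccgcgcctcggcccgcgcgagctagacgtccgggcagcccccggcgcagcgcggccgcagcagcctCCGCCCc
The AREG promoter held a TATA box 29 bases, a GC box 9 bases and a cyclic AMP response element 65 bases before the start. Of 35116 promoters of the same length, 11.5% held the TATA box and 1.85% the cyclic AMP response element. The EREG promoter held a TATA box 32 bases before its start and no match to the other motifs. Neither ERRFI1 nor EGFR had a match to TATAAA, the only TATA box form searched. The ERRFI1 sequence does hold the similar run tatatata before its start. Both promoters were richer in G and C, at 74.7% and 75.3%, than the median promoter, at 58.7%. ERRFI1 held 1 GC box and EGFR 3, a motif present in 45.0% of all promoters. Promoter entries matched 9 of the 10 members, all but ERBB3. Among the promoters not printed, EPGN held a TATA box, ERBB2 an AP-1 match (7.71% of promoters hold one), and TGFA, HBEGF and BTC held 4, 5 and 1 GC boxes. The ERBB2 entry lies at the start of the whole annotated gene, at 39688094 on chromosome 17. That need not be the start used in these cells. A match is a description of letters and no evidence of binding.

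The total count ranged from 25379279 to 29186963 per library, and 17672 genes passed the filter on low counts, all 10 members among them. Counts are given below as CPM, that is, as counts relative to library size after TMM scaling, a unit that compares 1 gene between libraries but not genes of different length. As a check of the labels, KDM1A was at 231, 224 and 214 CPM in WT libraries 1, 2 and 3 and at 29.9, 27.6 and 27.8 CPM in LSD1 KO libraries 1, 2 and 3. It was lower in every LSD1 KO library (log2 fold change -2.97 ± 0.15 (SE), edgeR quasi-likelihood adjusted p = 0.000451), and 12.7% of the WT transcript level remained. Of the epithelial markers, 6 of 7 were above 1 CPM (VIL1 was not), with a summed level of 2119 to 3945 CPM in WT and 2525 to 3318 CPM in LSD1 KO libraries. EPCAM went from 204 ± 39 to 104 ± 28 CPM (SD, n = 3 each). Its adjusted p was 0.0788 in edgeR with the replicate block described next and 0.668 without it. In DESeq2 it was 0.168 with the block and 0.0516 without it. KRT18 and CDH1 were also lower in LSD1 KO in each pair, and neither was called with the block (edgeR adjusted p = 0.23 and 0.196). KRT19 and CLDN4 were the higher ones in LSD1 KO in each pair and rose in DESeq2 with the block (adjusted p = 0.00392 and 0.0491) but not in edgeR with it (0.123 and 0.139), so the epithelial markers did not move together. The summed fibroblast markers stood at 20.5 to 24.2 CPM in WT and 30.3 to 34.4 CPM in LSD1 KO libraries, nearly all of it COL1A1, which rose with the block (edgeR adjusted p = 0.0628), while COL1A2 was at 0 in 5 of 6 libraries. Leukocyte markers summed to 0.833 to 1.23 and 1.36 to 2.08 CPM, with CD3E at 0 in every library, and the 3 of 4 endothelial markers found in the table to 0.530 to 1.09 and 0.966 to 2.04 CPM. The part of these markers in the results below was not tested.

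Which members differed between LSD1 KO and WT cells depended on whether same-numbered libraries were paired. In the edgeR fit without the replicate number, no member passed an adjusted p of 0.1 and 2 of 10 had an unadjusted p under 0.05 (AREG and ERRFI1), while 1 of 17672 genes (0.00566%), KDM1A, passed and 552 had an unadjusted p under 0.05. Libraries with the same number deviated together. The labels do not say what same-numbered libraries share, so the pairing rests on this likeness in the same data. In the fit with the replicate number as a block ERRFI1 and AREG rose and EGFR fell. These were 3 of 10 members against 282 of 17672 genes (1.6%), of which 185 rose and 97 fell. The members were chosen with earlier results of these data known, so the contrast is a description and no test of the set. DESeq2 without the block called ERRFI1 alone (0.37% of genes), and with the block it called the same 3 members of 9 it tested (3.96% of genes). Across the 10 members, the median log2 fold change was 0.19 without and 0.17 with the block, beside 0.0008 and 0.0030 over all genes tested, and 7 of 10 were above 0. Of the 17672 genes tested, 8856 were above 0 without the block and 8925 with it.

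**Figure D1:**
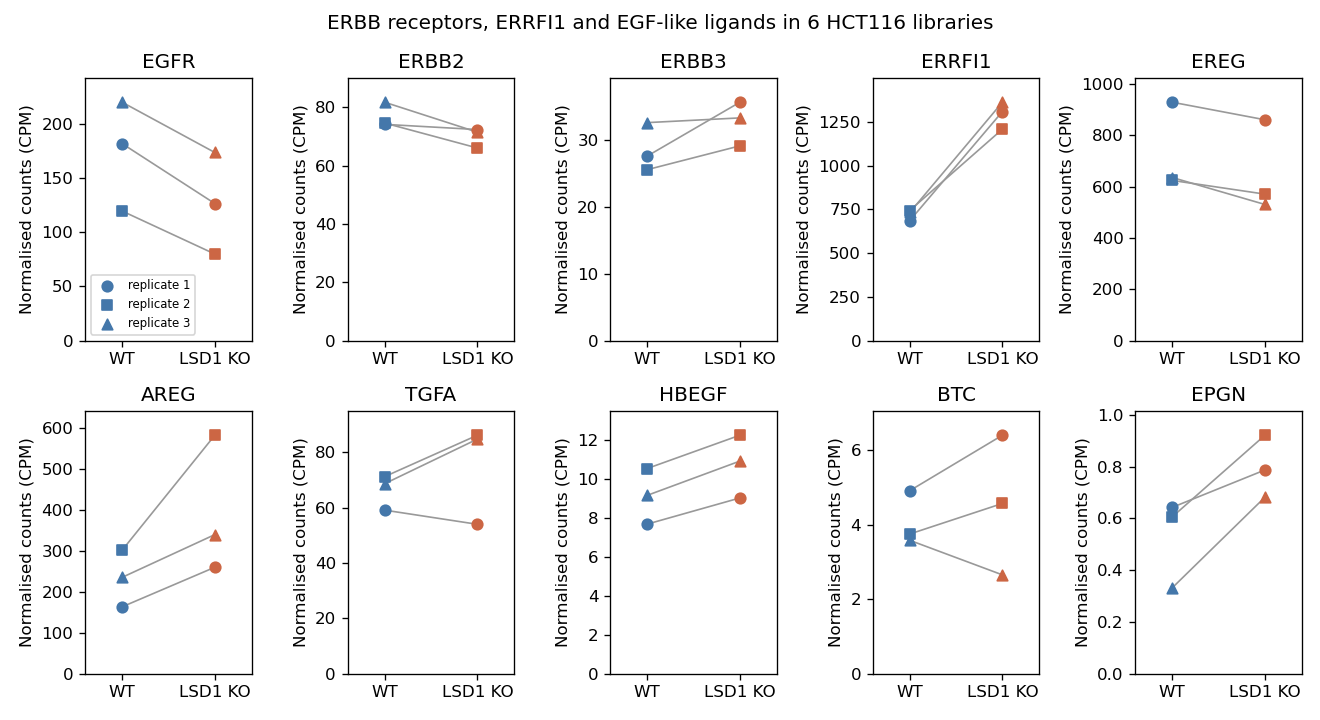
Normalised counts (CPM, linear axis from 0) of the 10 members in 3 WT (blue) and 3 LSD1 KO (orange) libraries, with a grey line joining libraries of the same number. The ERRFI1 points of LSD1 KO lie between 1209 and 1363 CPM, all above the WT points at 686 to 744 CPM, while for AREG and EGFR the groups overlap and all 3 lines run the same way.

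Among the receptors, EGFR, which binds EGF, TGFA, AREG and the other ligands directly, fell by 0.48 ± 0.09 (SE) on the log2 scale in the edgeR fit with the replicate block. Its 4804, 3153 and 6629 counts in WT libraries 1, 2 and 3 were 181, 119 and 220 CPM, and its 3531, 2164 and 4578 counts in the LSD1 KO libraries were 126, 79.7 and 173 CPM. The groups overlapped, since LSD1 KO library 3 lay above WT library 2, but in each pair the LSD1 KO library was the lower one, by 0.52, 0.58 and 0.34 on the log2 scale. The mean fell from 173 ± 51 to 126 ± 47 CPM (SD, n = 3 each), that is to 72.9% of WT. Without the block the log2 fold change was -0.46 ± 0.31 (SE) with an edgeR adjusted p of 0.999, and with the block the adjusted p was 0.0582. That call was lost when pair 1 (edgeR adjusted p = 0.101) or pair 3 (0.149) was left out and held without pair 2 (0.00807).

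ERBB2, the receptor that serves as the preferred partner, differed little. Counts of 1962, 1970 and 2466 in WT and 2023, 1792 and 1887 in LSD1 KO libraries gave 74.1, 74.6 and 81.7 CPM against 72.3, 66.0 and 71.4 CPM. All 3 LSD1 KO libraries lay below all 3 WT libraries, but the highest of the former, 72.3 CPM, was close to the lowest of the latter, 74.1 CPM. The difference (log2 fold change -0.13 ± 0.09 (SE) with the block) did not pass the edgeR test (adjusted p = 0.558), and the exact permutation test gave p = 0.1, the smallest that 3 against 3 libraries allow. ERBB3, the neuregulin receptor, was at 27.5, 25.5 and 32.5 CPM in WT and 35.6, 29.1 and 33.2 CPM in LSD1 KO libraries, from 674 to 995 counts. It was the higher one in LSD1 KO in each pair, the groups overlapped, and its log2 fold change of 0.20 ± 0.11 (SE) with the block had an edgeR adjusted p of 0.481.

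Reads of the receptors can be shared with other annotated genes. The library kit did not mark strand, and exons of ERBB2 overlap those of MIEN1, with 601 to 1045 counts, and PGAP3, with 213 to 407 counts, on the opposite strand. EGFR overlaps EGFR-AS1, which had 0 to 11 counts. ERBB3 overlaps a gene on its own strand, ENSG00000257411, to which 478, 0 and 102 counts were assigned in WT and 656, 54 and 176 in LSD1 KO libraries. How reads were divided between these genes cannot be seen in the count table, so the ERBB2 and ERBB3 values are uncertain to that extent.

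ERRFI1, the inhibitor of the EGFR kinase, had the smallest p of the members in each fit. WT libraries held 18152, 19649 and 22105 counts, or 686, 744 and 732 CPM, and LSD1 KO libraries 36629, 32822 and 36007 counts, or 1310, 1209 and 1363 CPM. Every LSD1 KO library lay above every WT library, and the lowest LSD1 KO value was 1209 CPM against a highest WT value of 744 CPM. The mean was 1.80 times that of WT (1294 ± 78 against 721 ± 31 CPM, SD, n = 3 each; exact permutation p = 0.1). ERRFI1 rose with the block (log2 fold change 0.84 ± 0.09 (SE), edgeR adjusted p = 0.0106) and in DESeq2 without it (adjusted p = 0.00286), and leaving out any 1 pair kept the call. In the edgeR fit without the block the same fold change had an unadjusted p of 0.000642 and an adjusted p of 0.443. An antisense gene over ERRFI1 exons, ENSG00000284747, had only 26 to 49 counts.

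Of the ligands, AREG (amphiregulin) rose with the block and EREG (epiregulin) did not pass the test. WT libraries 1, 2 and 3 held 4314, 7961 and 7092 AREG counts, that is 163, 301 and 235 CPM. The LSD1 KO libraries held 7261, 15804 and 8965, that is 260, 582 and 339 CPM. Library 2 was the highest of its group in both genotypes, and LSD1 KO library 1 lay below WT library 2, so that the groups overlapped. Within pairs AREG was higher in LSD1 KO by 0.67, 0.95 and 0.53 on the log2 scale. The mean was 1.69 times that of WT (394 ± 168 against 233 ± 69 CPM, SD, n = 3 each). The log2 fold change was 0.76 ± 0.33 (SE) without the block, at an unadjusted edgeR p of 0.0499 and an adjusted p of 0.999. It was 0.72 ± 0.10 (SE) with the block, at an adjusted p of 0.0235. Leaving out any 1 pair kept the blocked call, with log2 fold changes of 0.58 to 0.81, while in the fit without the block leaving out LSD1 KO library 2 lowered the log2 fold change to 0.34. AREGB, a name given in some annotations to a near-identical copy of AREG, had no row in the count table. It was also not among the genes listed around AREG on GRCh38.p14.

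EREG was at 930, 624 and 636 CPM in WT and 861, 571 and 531 CPM in LSD1 KO libraries, from 14016 to 24604 counts. Library 1 was the highest in both groups, the groups overlapped, and the LSD1 KO library of each pair was the lower one, by 0.11, 0.13 and 0.26 on the log2 scale. The log2 fold change of -0.17 ± 0.08 (SE) with the block had an edgeR adjusted p of 0.443. Without WT library 1 and without the block, the sign turned (0.05).

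TGFA (transforming growth factor alpha), a ligand of EGFR, was at 59.1, 71.2 and 68.7 CPM in WT and 54.0, 86.2 and 84.8 CPM in LSD1 KO libraries, from 1509 to 2339 counts. The LSD1 KO library was lower in pair 1 and higher in pairs 2 and 3 (edgeR with the block, log2 fold change 0.15 ± 0.11 (SE), adjusted p = 0.601). Without pair 1, 2 or 3 the blocked log2 fold change was 0.29, 0.07 and 0.08. HBEGF, the heparin-binding member, was at 7.67, 10.5 and 9.15 CPM in WT and 9.01, 12.2 and 10.9 CPM in LSD1 KO libraries, from 203 to 332 counts. Its pairs differed by similar amounts, 0.23, 0.22 and 0.25 on the log2 scale, yet the test was not passed (edgeR with the block, adjusted p = 0.523). BTC (betacellulin) was low. The WT libraries held 130, 99 and 108 of its counts (4.91, 3.75 and 3.58 CPM) and the LSD1 KO libraries 179, 124 and 70 (6.40, 4.57 and 2.65 CPM). Its direction was not settled, since the sign turned without LSD1 KO library 1 (-0.17) or, in the blocked fit, without pair 1 (-0.07) or pair 2 (-0.01). EPGN (epigen) was the rarest member, counted 17, 16 and 10 times in the WT libraries (0.642, 0.606 and 0.331 CPM) and 22, 25 and 18 times in the LSD1 KO libraries (0.787, 0.921 and 0.681 CPM). Its groups did not overlap, but at this depth the log2 fold change of 0.62 ± 0.42 (SE) with the block was not distinguishable from 0 (edgeR adjusted p = 0.572).

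**Figure D2:**
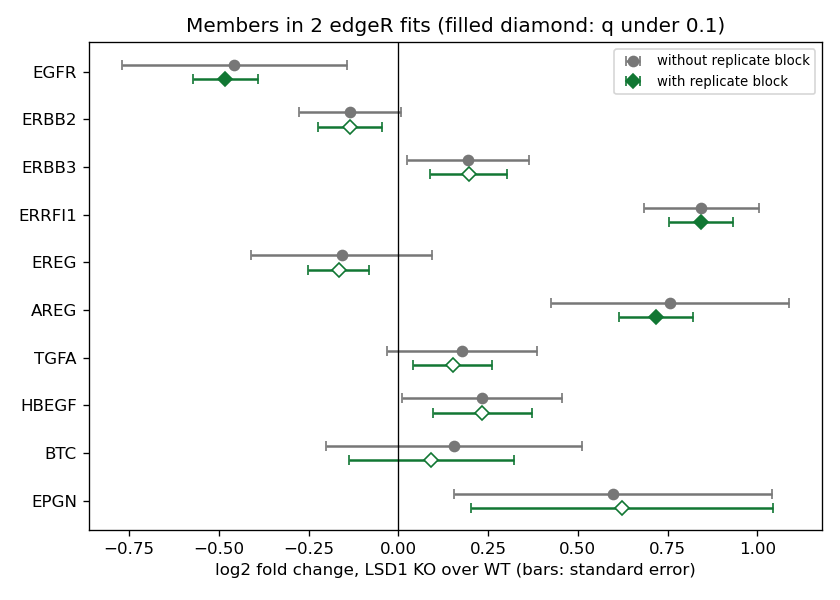
Log2 fold changes (LSD1 KO over WT) of the 10 members in the edgeR fits without (grey circles) and with (green diamonds) the replicate block, with bars of 1 standard error and filled diamonds for an adjusted p under 0.1. The block left the estimates nearly in place, narrowed the bars of EGFR from 0.31 to 0.09 and of AREG from 0.33 to 0.10, and left EPGN with the widest bar at 0.42.

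Libraries of LSD1 KO and WT did not overlap for 3 of the 10 members (ERRFI1, EPGN and ERBB2), beside 7.74% of the 17672 genes tested. All 3 pairs ran in the same direction for 8 of 10 members, beside 36.3% of genes: ERBB3, AREG, HBEGF, EPGN and ERRFI1 were the higher ones in LSD1 KO in each pair, and EGFR, ERBB2 and EREG the lower ones. TGFA and BTC were mixed. Because the members were chosen with earlier results of these data known, these shares are no test of the set.

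Levels were compared between members only per length, as CPM per kilobase of the canonical transcript. In WT cells the order was ERRFI1 (233 ± 10 CPM per kb, SD, n = 3), AREG (189 ± 56), EREG (158 ± 37), EGFR (17.5 ± 5.1), ERBB2 (16.9 ± 0.9), TGFA (16.1 ± 1.6), ERBB3 (5.08 ± 0.64), HBEGF (3.86 ± 0.61), BTC (1.54 ± 0.27) and EPGN (0.196 ± 0.063). The values of ERRFI1 and AREG, of AREG and EREG, of EGFR and ERBB2 and of ERBB2 and TGFA overlapped between libraries, and the other neighbours in the order did not. In LSD1 KO cells ERRFI1 stood at 418 ± 25 CPM per kb (SD, n = 3), AREG at 319 ± 136 and EREG at 142 ± 39. AREG and EREG no longer overlapped there, while ERRFI1 and AREG did. EGFR moved from the fourth to the sixth place, at 12.8 ± 4.7 CPM per kb, behind TGFA at 18.2 ± 4.4 and ERBB2 at 15.3 ± 0.8, but these 3 neighbours overlapped. ERBB3 (5.81 ± 0.59) and HBEGF (4.54 ± 0.69) overlapped as well, and BTC (1.71 ± 0.71) and EPGN (0.297 ± 0.045) stayed last. Per length, AREG and EREG were above each receptor in every library of either genotype.

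The 6 ligands together came to 369 ± 30 CPM per kb in WT and 486 ± 120 CPM per kb in LSD1 KO cells (SD, n = 3 each; exact permutation p = 0.1, the smallest possible). By library the sum was 353, 403 and 350 in WT and 417, 624 and 417 in LSD1 KO, so library 2 was the highest in both groups. The mean of AREG went from 189 to 319 CPM per kb and that of EREG from 158 to 142. The higher sum was thus mostly AREG. EREG made up 57.0%, 33.6% and 39.3% of the ligand sum in WT libraries and 44.8%, 19.8% and 27.6% in LSD1 KO libraries. AREG made up 37.4%, 60.6% and 54.4% in WT and 50.5%, 75.6% and 66.0% in LSD1 KO libraries. The share of AREG was the larger one in LSD1 KO in every pair, but the groups overlapped (exact permutation p = 0.3 for either share).

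Ratios of raw counts within a library do not depend on scaling between libraries. The ERRFI1 to EGFR count ratio was 3.78, 6.23 and 3.33 in WT and 10.4, 15.2 and 7.87 in LSD1 KO libraries. Every LSD1 KO library lay above every WT library (exact permutation p = 0.1), and the ratio was 2.75, 2.43 and 2.36 times higher in LSD1 KO in pairs 1, 2 and 3. ERRFI1 was called higher and EGFR lower with the block, so this ratio combines differences already described and adds no separate support. The AREG to EREG count ratio was 0.175, 0.483 and 0.370 in WT and 0.302, 1.02 and 0.640 in LSD1 KO libraries. It was 1.72, 2.11 and 1.73 times higher in LSD1 KO within pairs, with overlapping groups (exact permutation p = 0.3). The EGFR to ERBB2 count ratio was 2.45, 1.60 and 2.69 in WT and 1.75, 1.21 and 2.43 in LSD1 KO libraries (exact permutation p = 0.4).

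**Figure D3:**
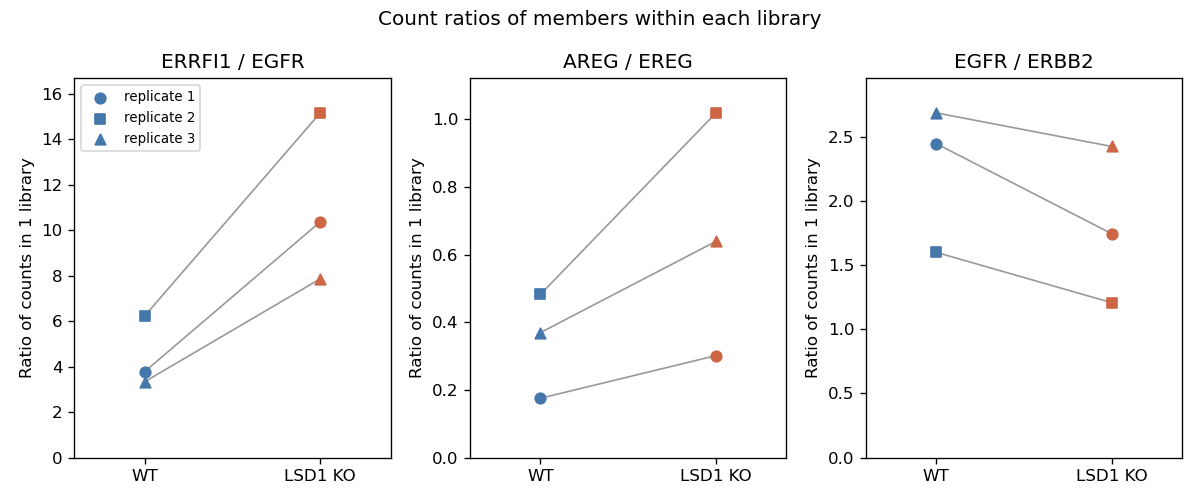
Ratios of the raw counts of a pair of members within each library (linear axes from 0) in WT (blue) and LSD1 KO (orange), with a grey line joining libraries of the same number. The ERRFI1 to EGFR ratio lies between 3.33 and 6.23 in WT libraries and between 7.87 and 15.2 in LSD1 KO libraries, and the other ratios overlap between the groups.

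The genes EPGN, EREG, AREG and BTC lie side by side on chromosome 4 over 486.1 kb (GRCh38.p14, EPGN from 74308470 and BTC to 74794523), and 56.4 kb separate the end of EREG (chr4:74365145-74388749) from the start of AREG (chr4:74445136-74455005). Of 34 genes listed within this span and 500 kb to either side, 10 passed the filter on low counts. AREG, already named above as called, was the only one of these 10 called in the edgeR fit with the block, beside 1.6% of the 17672 genes tested. CXCL1, CXCL2, CXCL3, EPGN and LINC02562 were low, with standard errors of 0.34 to 0.54 on the log2 scale. Smaller differences in these genes could therefore have been missed. The chemokine genes on one side were low: CXCL1 was at 2.15 ± 0.37 CPM in WT and 1.90 ± 1.58 CPM in LSD1 KO cells (SD, n = 3 each), CXCL3 at 1.17 ± 0.43 and 1.35 ± 0.94 CPM, and CXCL2 at 0.825 ± 0.237 and 1.32 ± 0.34 CPM. MTHFD2L, an enzyme of mitochondrial folate metabolism next to EPGN, was at 12.6 ± 1.8 and 11.9 ± 1.1 CPM. On the other side PARM1 was at 36.9 ± 8.2 and 43.2 ± 9.1 CPM. The non-coding LINC02562 was at 0.982, 0.757 and 0.364 CPM in WT and 0.250, 0.258 and 0.303 CPM in LSD1 KO libraries (edgeR with the block, log2 fold change -1.29 ± 0.54 (SE), adjusted p = 0.351). Its groups did not overlap, beside 7.74% of genes tested.

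**Figure D4:**
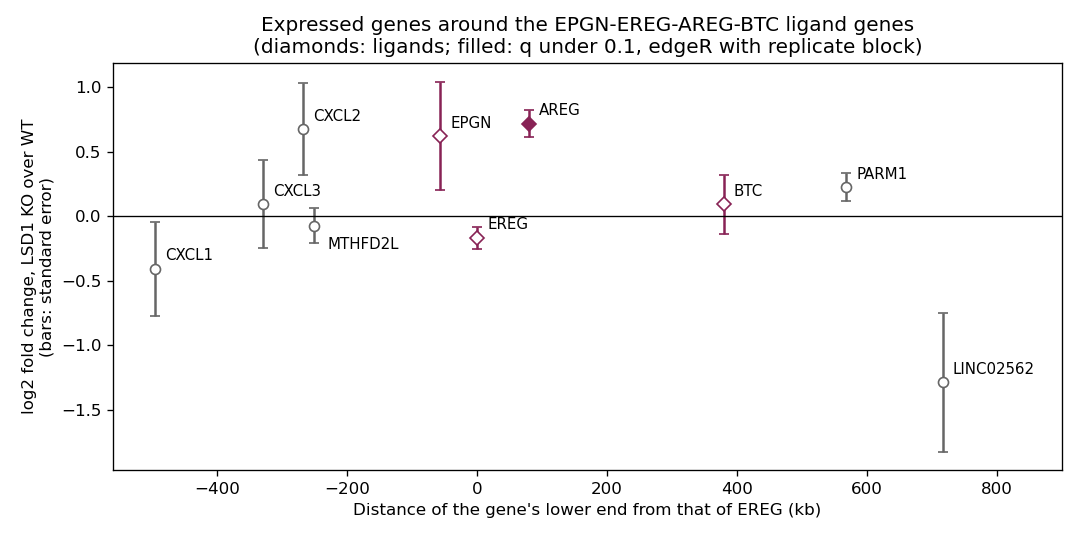
Log2 fold changes (LSD1 KO over WT, edgeR with the replicate block, bars of 1 standard error) of the 10 expressed genes around the chromosome 4 ligand genes, against the distance of each gene's lower end from that of EREG in kb. The AREG point (filled, 0.72) stands 80 kb from the EREG point (open, -0.17), and LINC02562 is lowest at -1.29.

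The remaining receptor and ligand genes of the family were at low counts, NRG2 with the most, at 64 to 236. ERBB4, a receptor for neuregulins, was counted 4, 1 and 1 times in the WT libraries and 2, 0 and 3 times in the LSD1 KO libraries. NRG3 had 0 counts in every library, which allows up to 3 counts per library by counting error alone. Neither gene passed the filter for the edgeR test, and DESeq2, which fitted ERBB4, gave it an adjusted p of 1.0 without the block. EGF itself was at 0.676 ± 0.176 CPM in WT and 0.675 ± 0.277 CPM in LSD1 KO cells (SD, n = 3 each). NRG4, a neuregulin that binds ERBB4, was counted 21, 24 and 17 times in the WT libraries and 74, 43 and 42 times in the LSD1 KO libraries, that is 0.793, 0.908 and 0.563 against 2.65, 1.58 and 1.59 CPM. Its groups did not overlap, beside 7.74% of the 17672 genes tested. The log2 fold change of NRG4, 1.34 ± 0.34 (SE) with the block, missed the threshold (edgeR adjusted p = 0.149). NRG1, a ligand of ERBB3 and ERBB4, was at 1.06, 1.06 and 0.828 CPM in WT and 1.57, 1.14 and 1.55 CPM in LSD1 KO libraries, also without overlap (edgeR with the block, adjusted p = 0.551). NRG2, of the same family, was at 2.42, 5.60 and 2.72 CPM in WT and 3.68, 8.69 and 3.90 CPM in LSD1 KO libraries. It was higher in LSD1 KO in each pair by 0.51 to 0.63 on the log2 scale (edgeR with the block, adjusted p = 0.234).

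Downstream and upstream of the receptors, 52 further genes were listed and 51 passed the filter, RHBDL2 being the exception. None was called in the edgeR fit without the block, where 3 had an unadjusted p under 0.05, and DESeq2 without it called DUSP6. With the block, edgeR called 3 of 51 (1 higher, 2 lower; 282 of 17672 genes overall), all of them among the 16 genes that restrain the pathway. Those 16 genes had a median log2 fold change of 0.12 with the block. DUSP5, a nuclear phosphatase of ERK that ERK signalling induces, rose from 168 ± 36 to 272 ± 55 CPM (SD, n = 3 each; log2 fold change 0.70 ± 0.08 (SE), edgeR adjusted p = 0.0149). DUSP6, the cytoplasmic ERK phosphatase that is likewise induced by ERK, fell from 289 ± 57 to 159 ± 8 CPM (log2 fold change -0.84 ± 0.13 (SE), edgeR adjusted p = 0.0344). LRIG1, a membrane protein that promotes the degradation of ERBB receptors, fell from 9.15 ± 1.45 to 4.89 ± 0.85 CPM (log2 fold change -0.90 ± 0.19 (SE), edgeR adjusted p = 0.0864). The groups did not overlap for any of these 3 genes, beside 7.74% of the 17672 genes tested. They were picked by their adjusted p, so this adds no separate support. EPS15, a pathway gene that was not called, did not overlap either.

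Leaving out pairs changed the pathway count to 4, 5 and 2 without pair 1, 2 and 3. Over all genes tested, the same fits called 428 of 17835, 1055 of 18043 and 198 of 17686. With all pairs the call was 282 of 17672 genes. The pathway count was thus highest and lowest in the fits where the count over all genes was. DUSP5 and DUSP6 were called in all 3 fits with a pair left out, while LRIG1 was called in these only without pair 2. HRAS and UBASH3B were added without pair 1 and DUSP4 and SPRY1 without pair 2, genes named here after their values were seen. DUSP4, another ERK phosphatase, was at 145, 226 and 239 CPM in WT and 77.2, 479 and 131 CPM in LSD1 KO libraries, so that LSD1 KO library 2 went against the other LSD1 KO libraries. DESeq2 with the block called 4, the 3 genes above and UBASH3B.

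In the remaining lists none was called with the block. The 5 ligand-shedding genes tested had a median log2 fold change of 0.14, the 12 adaptors 0.11 and the 18 RAS-ERK and PI3K effectors 0.08, against 0.0030 over all genes. ADAM17, the metalloprotease that releases AREG, EREG and TGFA, was at 61.2 ± 8.0 CPM in WT and 67.5 ± 3.2 CPM in LSD1 KO cells (SD, n = 3 each; edgeR with the block, adjusted p = 0.56). EPS15, an endocytic adaptor of EGFR, was at 71.7 ± 5.6 and 81.4 ± 5.1 CPM (adjusted p = 0.477 in the same edgeR fit). HRAS, a RAS protein, was at 46.3 ± 12.6 and 34.5 ± 5.7 CPM (adjusted p = 0.206 in the same edgeR fit). Over all 4 lists, 38 of 51 genes had a log2 fold change above 0, beside 8925 of 17672 genes tested, and the median was 0.10. Most of these genes were not called, and the lists were chosen with earlier results of these data known. The counts are therefore no test of the pathway.

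**Figure D5:**
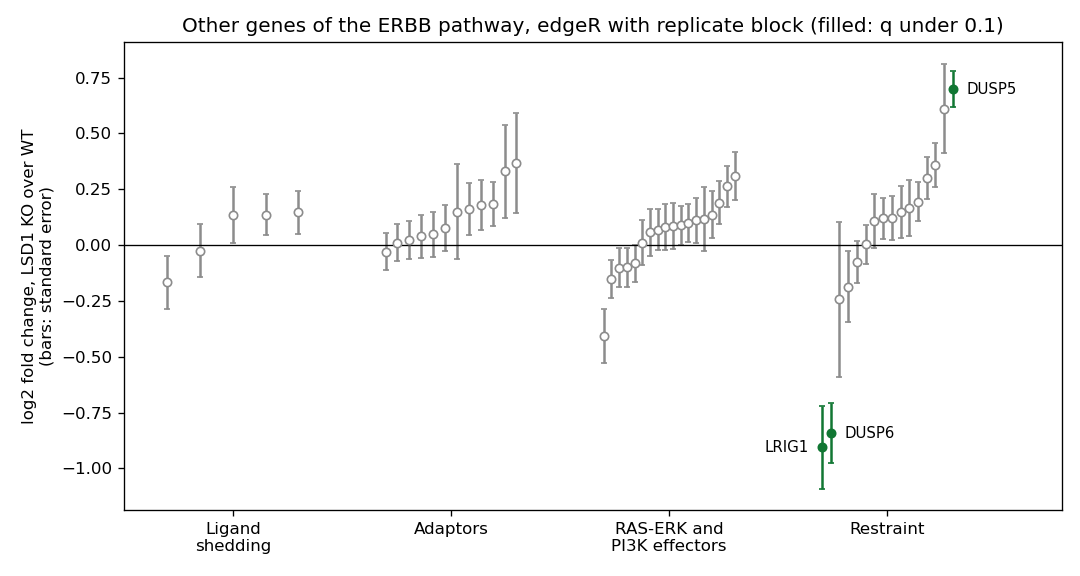
Log2 fold changes (LSD1 KO over WT, edgeR with the replicate block, bars of 1 standard error) of 51 further pathway genes in 4 lists, ordered by value within each list. Filled points (adjusted p under 0.1) occur only in the restraint list: DUSP5 at 0.70, DUSP6 at -0.84 and LRIG1 at -0.90.

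The profile of EGFR over the 6 libraries, as log2 CPM centred on its mean, was closest to those of ENSG00000254701, ENSG00000198358 and ONECUT1, with root mean square differences of 0.09, 0.09 and 0.10 on the log2 scale. These 3 genes had means of only 1.79, 1.04 and 1.14 CPM, near the 1 CPM limit of the search, so their profiles are uncertain. The median difference over 14800 genes of at least 1 CPM was 0.55. The profile of EREG was closest to those of ELF1 (0.05), CCZ1B (0.05) and PKNOX1 (0.05), with a median of 0.39 over the same genes. CCZ1B shares most of its sequence with CCZ1, so its counts are uncertain. With only 6 libraries these lists describe likeness in these data alone.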

How the data were processed

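RNA-seq libraries of 3 WT and 3 LSD1 KO HCT116 samples were used. According to the submitters' notes and the study's methods, reads were trimmed with Trimmomatic 0.39 after FastQC and quantified with Salmon 1.4.0 on GRCh38; the authors deposited a gene table of expected counts, which are whole numbers and not scaled for depth. How transcript estimates were summed to genes is not given in the sources used here. Symbols were paired by Ensembl identifier for 58395 of 60240 genes, and the 1845 others kept their identifiers.

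Counts were tested with edgeR 4.0.16 in R 4.3.3 (filterByExpr by group, TMM, quasi-likelihood F test, Benjamini-Hochberg over the genes tested, threshold 0.1), with a standard error from the log2 fold change and F. A model with the replicate number as a block was fitted beside it, because deviations from the group means of same-numbered libraries correlated in every pair (r = 0.553, 0.553 and 0.404 over 17672 genes, against -0.516 to 0.0454 for the other combinations). The block lowered the common biological coefficient of variation from 0.279 to 0.133. DESeq2 1.42.0, other scalings, no filter and leaving out libraries served as alternatives. Leaving out pairs in the blocked fit was added after seeing the data. Single values were compared by 2-sided exact permutation tests.

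CPM per kb used the length of the Ensembl canonical transcript of GENCODE on GRCh37, and coordinates and promoters came from RefSeq GRCh38.p14. The members and gene lists were chosen with earlier results of these data known. Named genes were all members, KDM1A, the rest of the ERBB and ligand families, pathway genes with an adjusted p under 0.1 in either edgeR fit (else the one with the smallest blocked p per list), tested genes within 500 kb of the chromosome 4 ligands, and the 3 profiles closest to EGFR and to EREG among genes of at least 1 CPM. A search of ligand proteins for the EGF-like cysteine motif was planned and not made here.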

Additional observations from a re-analysis of the deposited data

How the results depend on the processing

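No member was called under RLE or upper-quartile scaling, without the filter or without any 1 library, all without the replicate block. DESeq2 called 1, the replicate block 3, DESeq2 with the block 3, and the block without pair 1, 2 or 3 called 2, 3 and 2 members. Of the pathway genes, 0 were called without the block, 1 without the filter (DUSP6), 1 by DESeq2, 3 with the replicate block, 4 by DESeq2 with the block, and 4, 5 and 2 with the block and pair 1, 2 or 3 left out. Over all genes, the single call became 114 without the filter, 95 with DESeq2, 282 with the replicate block, 593 with DESeq2 and the block, and 428, 1055 and 198 with the block and pair 1, 2 or 3 left out. It ranged from 1 to 26 when 1 library was left out, with 26 without LSD1 KO library 2. Why the counts differed was not tested.

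Across the same alternatives, 8 of the 10 members kept the sign of their log2 fold change. BTC turned to -0.1744 without LSD1 KO library 1 (range over libraries left out -0.17 to 0.43), and to -0.0657 and -0.0123 with the block and pair 1 or 2 left out. EREG turned to 0.0539 without WT library 1 (range -0.41 to 0.05). Without the block, leaving out libraries moved EGFR between -0.76 (without LSD1 KO library 3) and -0.23 (without LSD1 KO library 2), AREG between 0.34 and 0.98, TGFA between 0.05 (without LSD1 KO library 2) and 0.37 (without LSD1 KO library 1), and ERRFI1 between 0.80 and 0.87. With 3 libraries a group, an exact permutation test cannot go below p = 0.1, and the 10 to 25 counts of EPGN limit what can be seen of it.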
